A study of Homo sapiens with 3 samples.

Results

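Peak regions of the transcription factor TEAD and of the acetylated histone H3K27ac were examined around the start positions of 3 receptor tyrosine kinase genes, AXL, EGFR and MET, and of the caveolin gene CAV1, whose window also takes in CAV2, in 786-O cells. A region was a member when its summit, the position of highest signal, lay within 50 kb of the start position on hg19: 41725108 on chromosome 19 for AXL, and 55086725, 116312459 and 116164839 on chromosome 7 for EGFR, MET and CAV1. By this rule 32 of 35241 TEAD regions and 46 of 52667 H3K27ac regions were members, 78 regions in all for 5 genes. 786-O is an established human clear cell renal carcinoma line, grown here as labelled with no treatment or genotype contrast. The series lists 1 H3K27ac library, 1 TEAD library and 1 input library. With 1 library per antibody there is no replicate check, no value below is tested between conditions, and the comparisons set regions of these libraries beside each other.

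AXL, EGFR and MET sit in the plasma membrane and start kinase signalling when they bind GAS6, ligands of the EGF family and HGF, respectively. CAV1 and CAV2 are integral proteins of caveolae, the small membrane invaginations in which many receptors and signalling proteins are found, and CAV2 pairs with CAV1 in the caveolar coat. TEAD proteins bind DNA and recruit the Hippo pathway co-activators YAP and TAZ, mostly at enhancers, and AXL is a known YAP target gene. H3K27ac marks active promoters and enhancers. In clear cell renal carcinoma AXL and MET are targets of kinase inhibitor therapy.

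A TEAD region covered the start position of AXL, EGFR, MET and CAV1 alike, so the sequences just before these starts are shown. Each is the 250 bases upstream of the gene's start farthest upstream in RefSeq (GRCh38.p14, plus strand), 5′ to 3′. These starts belong to another build than the peaks, so summits were not placed on the letters. Capitals mark the GC box GGGCGG on either strand, a motif searched after the sequences had been read.
AXL: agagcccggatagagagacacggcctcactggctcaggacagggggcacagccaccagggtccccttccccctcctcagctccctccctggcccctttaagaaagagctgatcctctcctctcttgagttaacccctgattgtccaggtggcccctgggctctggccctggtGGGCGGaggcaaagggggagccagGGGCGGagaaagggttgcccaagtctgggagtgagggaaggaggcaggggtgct
EGFR: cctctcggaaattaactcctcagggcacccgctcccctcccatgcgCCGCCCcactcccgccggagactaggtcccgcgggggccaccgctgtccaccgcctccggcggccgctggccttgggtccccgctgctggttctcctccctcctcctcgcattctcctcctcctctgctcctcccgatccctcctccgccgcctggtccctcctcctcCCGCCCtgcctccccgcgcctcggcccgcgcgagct
MET: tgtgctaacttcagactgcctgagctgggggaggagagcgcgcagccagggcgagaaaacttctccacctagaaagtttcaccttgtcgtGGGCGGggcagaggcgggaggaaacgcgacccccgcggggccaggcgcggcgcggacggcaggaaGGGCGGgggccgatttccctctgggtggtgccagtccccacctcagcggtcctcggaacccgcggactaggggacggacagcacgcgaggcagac
CAV1: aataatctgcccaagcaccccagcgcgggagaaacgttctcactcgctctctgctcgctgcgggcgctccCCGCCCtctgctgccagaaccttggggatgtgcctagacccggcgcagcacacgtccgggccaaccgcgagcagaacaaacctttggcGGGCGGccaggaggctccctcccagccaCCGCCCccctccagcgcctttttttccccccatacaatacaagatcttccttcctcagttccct

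The TEAD motif GGAATG, searched on both strands, was in none of these 4 sequences and not in the CAV2 one, and 12% of 27305 promoters of the same length held it. The AP-1 motif TGANTCA (6.57% of promoters), the canonical 10-base NF-κB site (0.19%) and TATAAA (11.2%) were also absent from all 5. A GC box occurred 2 times before AXL, EGFR and MET, 3 times before CAV1 and 6 times before CAV2, against 42.2% of promoters with at least 1. The GC content was 64.4% for AXL, 73.6% for EGFR, 68.4% for MET, 63.6% for CAV1 and 83.2% for CAV2, with a median of 57.6% over all promoters. The AXL sequence held 4 CpG dinucleotides, where EGFR had 25, MET 24, CAV1 18 and CAV2 35; the median over all promoters was 10, and 30.1% had fewer than AXL. These matches describe the letters only, since the windows are short and TEAD regions are wider. Promoters of other receptor, ligand, adaptor and caveola genes were looked up in the same table, which held 34 of a list of 41. The TEAD motif was in 6 of the 34: the receptor EPHA2, the ligands EGF, EREG and HGF, the signalling inhibitor SOCS3 and the caveola protein CAVIN2. Peaks at these genes were not analysed here, as their hg19 starts were not used.

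Fold below is the deposited enrichment at the summit over the local background of the peak caller. The read pileup at the summit and the local background in reads were recovered from the deposited fold and p-value, and intervals are exact 95% Poisson intervals on the pileup. Such intervals reflect sampling of reads alone, and duplicates of a molecule could not be recognised. In each list the median pileup was 24 reads and the lowest 7. The member TEAD regions had 13 to 192 reads.

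The windows of EGFR, MET and CAV1 were dense in TEAD regions and that of AXL was not. AXL had 4 TEAD regions, EGFR 9, MET 9 and CAV1 10. Among 15991 tiles of 100 kb that held any region, 98.2% had fewer TEAD regions than the EGFR or MET window, 98.8% had fewer than the CAV1 window and 80.4% had fewer than the AXL window. Tiles are not centred on anything, so windows of the same size were also centred on each of the 3450 H3K27ac summits of at least 20-fold, where the median was 4 TEAD regions (interquartile range 2 to 6). EGFR and MET then exceeded 89.0% of windows, CAV1 92.2% and AXL 48.9%. H3K27ac regions numbered 5 at AXL, 12 at EGFR, 21 at MET and 8 at CAV1. The MET count exceeded that of 98.6% of the centred windows, and CAV1, with more TEAD than H3K27ac regions, exceeded 63.8%. H3K27ac covered 12.6% of the AXL window, 20.9% of EGFR, 39.5% of MET and 19.9% of CAV1.

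**Figure D1:**
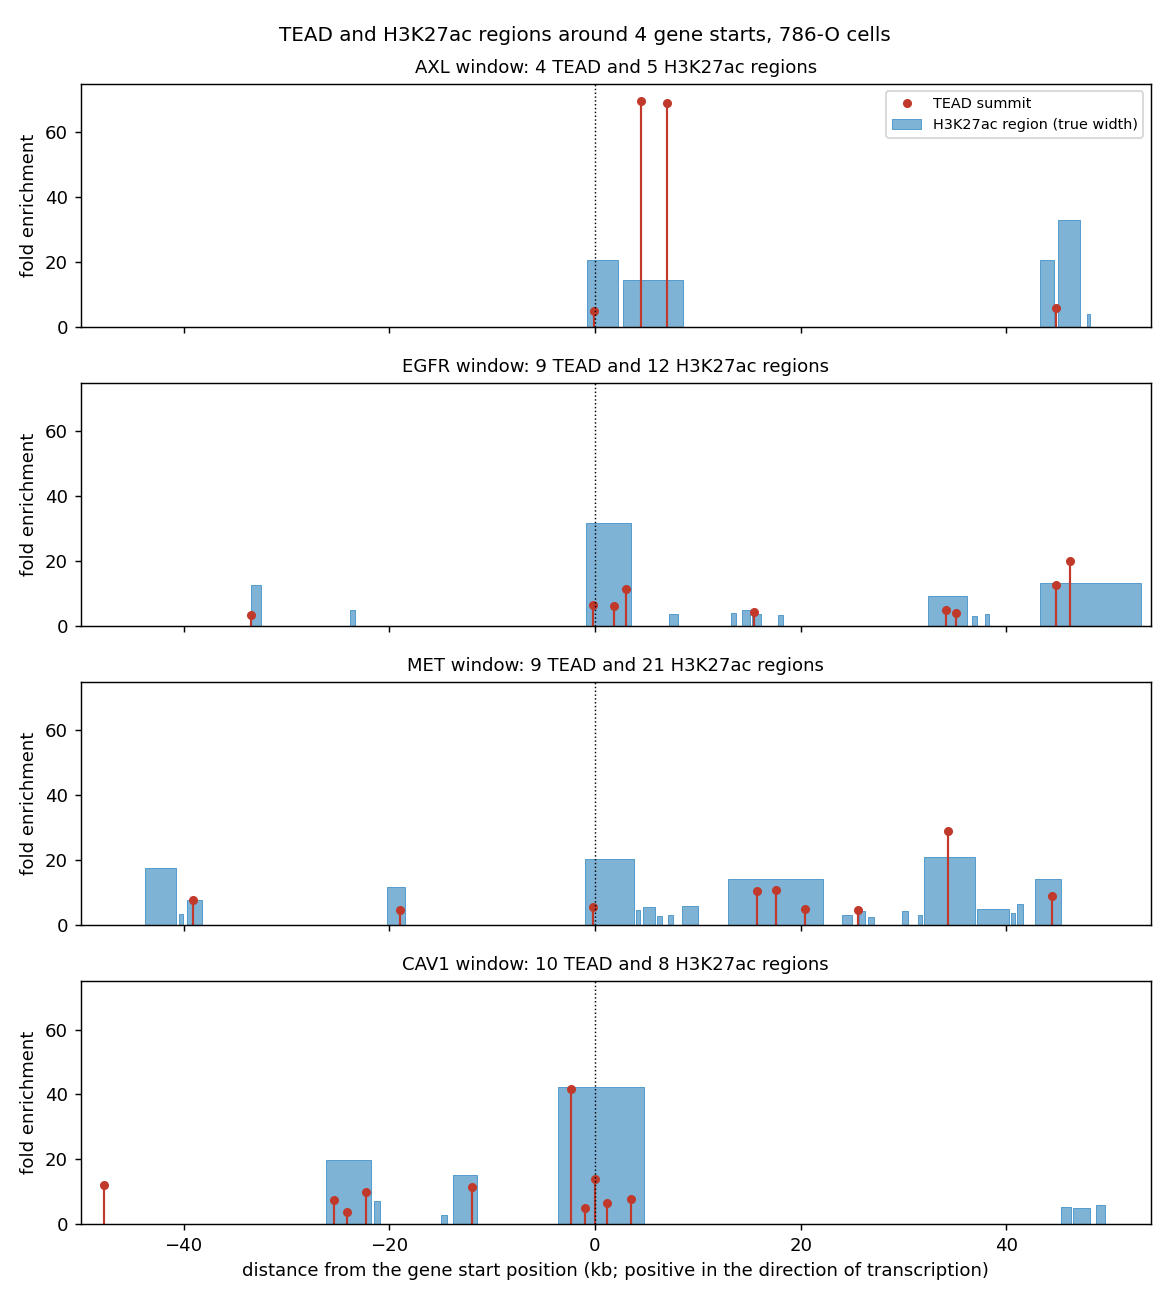
Fold enrichment of every TEAD summit (red stems) and H3K27ac region (blue bars at true width) against distance from the start position in kb, one panel per gene. The tallest TEAD stems stand just downstream of the AXL start (69.6- and 68.9-fold), whereas MET has the most acetylated regions, 21.

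Nearly all TEAD regions of these loci lay in acetylated chromatin. Of the 32, 31 overlapped an H3K27ac region by 1 bp or more, 96.9% (95% Wilson interval 84.3 to 99.4%), and over all TEAD regions the share was 68.4%. The summit itself lay inside H3K27ac for 29 of 32, 90.6% (75.8 to 96.8%), against 55.3% of all. Each window is centred on a start that lies in an H3K27ac region. The shares in windows centred on strong H3K27ac summits were not computed, so the excess is not read as a trait of these loci. The members lie in 4 windows, 3 of them on chromosome 7, and neighbours are not independent of one another and the intervals may be too narrow. The exception was the region farthest from CAV1, 47.7 kb before its start on the side of CAV2, with 12.2-fold enrichment and no H3K27ac region within 8.65 kb. At MET a region 25.6 kb downstream touched H3K27ac over only 70 bp, with its summit outside. At AXL a region 44.8 kb downstream had its summit in the gap between 2 H3K27ac regions. In fold the 32 regions were ordinary: their median was 7.63 and that of all TEAD regions 7.14, and 12 of 32 reached 10-fold, 37.5% (22.9 to 54.7%), beside 30.4% of all.

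At AXL the TEAD signal was concentrated in 2 regions a few kb downstream of the start. The TEAD region over the start (chromosome 19, 41724779 to 41725175) had its summit 128 bp upstream and was weak, at 4.92-fold (2.94 to 7.81) from 16 reads. The region with its summit 4449 bp downstream (41729162 to 41729906) reached 69.6-fold (60.1 to 80.1) from 192 reads over a background of 1.77. The next, 7004 bp downstream (41731526 to 41732648), reached 68.9-fold (59.4 to 79.6) from 185 reads. Their intervals overlap, so neither can be called the stronger, and they ranked 83 and 87 among all 35241 TEAD regions. Both lay in 1 H3K27ac region of 5776 bp (41727864 to 41733639) that itself reached only 14.4-fold (10.9 to 18.7). The acetylated region over the start (41724288 to 41727353) had 20.6-fold and carried the weak TEAD region alone.

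The 50 kb upstream of AXL were empty: no H3K27ac region and no TEAD region other than the one over the start had its summit before that position. The strongest acetylation of the window lay 45.6 kb downstream (41770114 to 41772224) at 33.0-fold (27.5 to 39.2), on the side of the neighbouring gene HNRNPUL1, and overlapped no TEAD region. The TEAD region beside it, 44.8 kb downstream (41769456 to 41770019), had 5.89-fold (3.51 to 9.35). It overlapped an H3K27ac region of 20.8-fold (41768408 to 41769754). The remaining acetylated region, 330 bp wide, reached 4.03-fold. Between the AXL pair and this distal group, 34.8 kb held no H3K27ac region.

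EGFR had moderate TEAD regions spread over the start and the downstream side. The acetylated region over the start (chromosome 7, 55085832 to 55090258) was the strongest of its window at 31.7-fold (26.5 to 37.7) and held 3 TEAD regions. The TEAD region on the start (55086387 to 55086890, summit 154 bp upstream) had 6.60-fold (4.72 to 8.99) from 38 reads. Another, 1836 bp downstream (55088330 to 55088659), had 6.06-fold, and the last, 3043 bp downstream (55089530 to 55090005), had 11.4-fold (8.34 to 15.3). The intervals of these 3 overlap, and the differences among them were not tested.

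The strongest TEAD region of the EGFR window was distal. It lay 46.2 kb downstream (55132611 to 55134471), was 1861 bp wide and reached 20.2-fold (16.6 to 24.4) from 107 reads. Its neighbour 44.8 kb downstream (55131285 to 55131768) had 12.8-fold (9.66 to 16.6). Both sat in the widest acetylated region of the window, 9799 bp (55129969 to 55139767), which reached 13.4-fold and ran 3042 bp past the window's end. Between them and the start, TEAD regions at 15.4, 34.1 and 35.1 kb had 4.44-, 5.02- and 4.17-fold. The region 33.4 kb upstream (55053109 to 55053693) had the lowest fold of the 32, 3.55 (2.24 to 5.40), an interval that overlaps those of several other weak regions. It overlapped acetylation of 12.6-fold, with its summit 9 bp inside the edge. Of the 12 acetylated regions at EGFR, 5 carried TEAD, near the 41.7% of all H3K27ac regions that did. The 7 without TEAD had 3.25- to 5.08-fold and at most 849 bp. Over all H3K27ac regions below 1000 bp, 24.5% carried TEAD.

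At EGFR the 50 kb limit left out the strongest TEAD region nearby. The nearest TEAD region outside it, 51.5 kb upstream (55034841 to 55035840), had 53.6-fold (46.2 to 61.9) from 184 reads and rank 259, above the interval of every TEAD region inside. With a window of 100 kb EGFR had 18 TEAD regions. At MET and CAV1 the nearest TEAD regions outside, at 62.1 and 63.6 kb, had 4.40- and 4.87-fold, and at AXL 6.66-fold at 89.5 kb.

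MET combined the most acetylated regions and the largest acetylated share of its window with TEAD regions of mid-range fold. Its highest H3K27ac fold, 21.1, was below those of AXL (33.0), EGFR (31.7) and CAV1 (42.4). The TEAD region on its start (chromosome 7, 116312010 to 116312505, summit 193 bp upstream) had 5.45-fold (3.57 to 8.01) from 24 reads. It lay in an acetylated region of 4694 bp (116311528 to 116316221) at 20.3-fold (17.0 to 24.0). The strongest TEAD region was 34.3 kb downstream (116346453 to 116347136) at 28.9-fold (23.9 to 34.6) from 115 reads. The acetylated region there (116344405 to 116349380) was also the strongest of the window, at 21.1-fold (16.8 to 26.1). Its interval overlaps that of the region over the start, so the order of these 2 is not resolved.

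The widest acetylated region of the MET window, 9266 bp (116325346 to 116334611), held 3 TEAD regions. Those 15.8 and 17.6 kb downstream had 10.5-fold (7.75 to 13.8) and 10.8-fold (8.15 to 13.9) and cannot be ordered, and that at 20.4 kb had 4.88-fold. The TEAD region farthest out, 44.5 kb downstream (116356744 to 116357171), had 8.88-fold (6.19 to 12.4). On the upstream side, TEAD regions 39061 and 18992 bp before the start had 7.71- and 4.69-fold. The strongest upstream acetylation, 42.6 kb before the start (116268708 to 116271761) at 17.7-fold, carried none. In all, 7 of the 21 acetylated regions carried TEAD, where 41.7% of all H3K27ac regions did, and the difference was not tested. The widest of the 14 without TEAD had 3140 bp and 4.90-fold.

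CAV1 had the H3K27ac region of highest fold in the set and the most TEAD regions within the acetylated region over a start, 5. The region over its start (chromosome 7, 116161263 to 116169639) was 8377 bp wide and reached 42.4-fold (36.4 to 49.0) from 179 reads, rank 13 among all 52667 H3K27ac regions. Its interval overlaps the upper ends of those of the distal AXL region and the EGFR start region, and the differences among these 3 were not tested. It held 5 of the 10 TEAD regions. The strongest, 2349 bp upstream (116162120 to 116163266), had 41.6-fold (35.3 to 48.7) from 153 reads and rank 592. The region on the start itself (116164443 to 116165557, summit 14 bp downstream) followed with 14.0-fold (10.5 to 18.2). The other 3, with summits 986 bp upstream and 1193 and 3483 bp downstream, had 4.99-, 6.60- and 7.75-fold.

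Another acetylated group lay on the upstream side, where RefSeq places CAV2 as the nearest protein-coding gene. The region with its summit 24.7 kb before CAV1 (116138661 to 116143035) had 19.9-fold (16.6 to 23.5) and held 3 TEAD regions. These had 7.54-fold (5.26 to 10.5) at 25.4 kb, 3.67-fold (2.31 to 5.58) at 24.2 kb and 9.85-fold (6.98 to 13.5) at 22.3 kb before CAV1. The hg19 start of CAV2 was not used here, so none of them was assigned to the CAV2 promoter. Between this group and CAV1, a TEAD region 11993 bp upstream (116152003 to 116153111) had 11.4-fold (8.42 to 15.2) within acetylation of 15.1-fold. Downstream of CAV1, on the side of MET, 40.5 kb held no H3K27ac region. Past it came 3 of 4.97- to 5.88-fold, none with TEAD.

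At the starts the summits of the 2 profiles were offset. The TEAD summit lay at -128 bp for AXL, -154 bp for EGFR, -193 bp for MET and +14 bp for CAV1. The H3K27ac summit lay at +184, +214, +245 and +463 bp in the same order. The H3K27ac summit thus lay 312, 368, 438 and 449 bp downstream of the TEAD summit. How often this order occurs at other gene starts was not tested, so it is not read as a trait of these genes. The acetylated regions over the starts also differed, holding 1 TEAD region at AXL and MET, 3 at EGFR and 5 at CAV1. Their widths were 3066 bp at AXL, 4694 bp at MET, 4427 bp at EGFR and 8377 bp at CAV1. A wider region can hold more TEAD regions by size alone, and these counts were not matched for width. Over all 31 marked TEAD regions, those that overlap H3K27ac, the distance between the summits had a median of 711 bp and ran from 144 to 3941 bp. The median over all marked TEAD regions was 397 bp. Of the 31, 1 lay within 150 bp of the H3K27ac summit, and 9.31% of all marked regions did, a share this count cannot be set apart from. A wider H3K27ac region allows a longer distance, and the distances were not matched for that width.

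The TEAD region on the start was not the strongest of its window at any of the 4 genes. It took place 4 of 4 at AXL, 4 of 9 at EGFR, 6 of 9 at MET and 2 of 10 at CAV1. Its exact place is not resolved, since at each gene its interval overlapped those of regions next to it in the order. The strongest exceeded it 14.1-fold at AXL, 3.06-fold at EGFR, 5.29-fold at MET and 2.98-fold at CAV1, and their counting intervals did not overlap at any gene. This arrangement is common: of 1413 windows centred on H3K27ac summits of at least 20-fold, with 4 or more TEAD regions and 1 within 1 kb of the centre, the strongest TEAD region lay beyond 1 kb in 75.9%. So 4 of 4 is not a result about these genes.

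**Figure D2:**
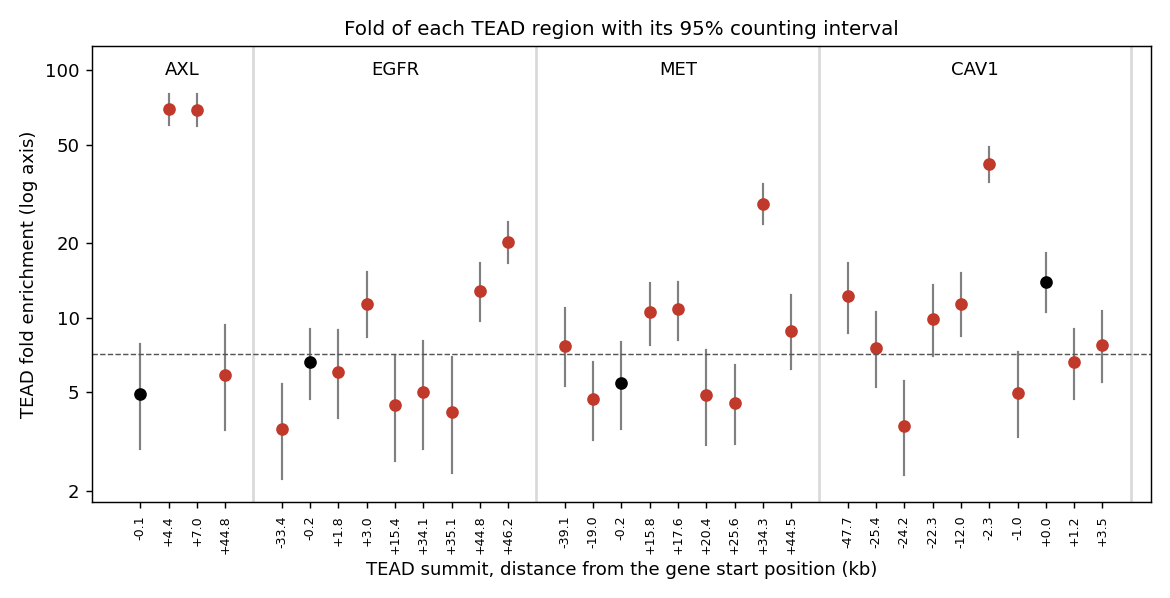
TEAD fold of each of the 32 regions on a log axis with 95% Poisson counting intervals, ordered by position within each window; black points are the regions nearest the start and the dashed line is the median of all TEAD regions, 7.14. The AXL pair at 69.6- and 68.9-fold stands apart, and the black points lie between 4.92 and 14.0.

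Within 50 kb, the strongest TEAD regions fell in the order AXL, CAV1, MET and EGFR, at 69.6-, 41.6-, 28.9- and 20.2-fold. This order depends on the window: within 100 kb the strongest EGFR region, at 53.6-fold (46.2 to 61.9), stood above those of CAV1 and MET in fold. Its interval overlapped those of CAV1 (35.3 to 48.7) and of AXL (60.1 to 80.1). The intervals of AXL and CAV1 did not overlap, and those of CAV1 and MET only just cleared each other, at 35.3 against 34.6. Those of MET and EGFR (up to 24.4) overlapped. In reads the order was less clear. AXL had 192 (166 to 221), CAV1 153 (130 to 179), MET 115 (94.9 to 138) and EGFR 107 (87.7 to 129), and each overlapped the next.

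The chromosomes of these loci differed in background. For TEAD regions on chromosome 7 the median was 3.02 reads, for those on chromosome 19 it was 2.17, and over all chromosomes 2.45. Within the windows it was 1.83 at AXL, 2.96 at EGFR, 3.59 at MET and 3.26 at CAV1. At equal reads a lower background gives a higher fold. DNA copy number was not measured, and its part in these values was not tested.

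Acetylated regions with TEAD were mostly wide and strong, and those without mostly narrow and weak. Of the 46, 18 overlapped TEAD, 39.1% (26.4 to 53.5%), close to the 41.7% of all H3K27ac regions. Regions of the same width deciles over the genome carried TEAD in 48.1% of cases, or 22.1 of 46. The 18 with TEAD had a median width of 3459 bp and a median fold of 14.4, and the 28 without had 582 bp and 4.21. A wider region can meet a TEAD region by size alone. Below 1000 bp, 3 of 25 carried TEAD, and 24.5% of all regions so narrow did; from 2000 bp, 12 of 15 did, and 76.1% of all. At 10-fold or more stood 16 of the 46, 34.8% (22.7 to 49.2%), near the 30.5% of all H3K27ac regions. Of these 16, 14 carried TEAD, 87.5% (64.0 to 96.5%), beside 65.1% of all regions of that fold. The other 2 were the 33.0-fold region distal to AXL and the 17.7-fold region upstream of MET. Below 10-fold, 4 of 30 carried TEAD, 13.3% (5.31 to 29.7%), beside 31.5% of all regions of such fold. The shares by fold were not matched for width.

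**Figure D3:**
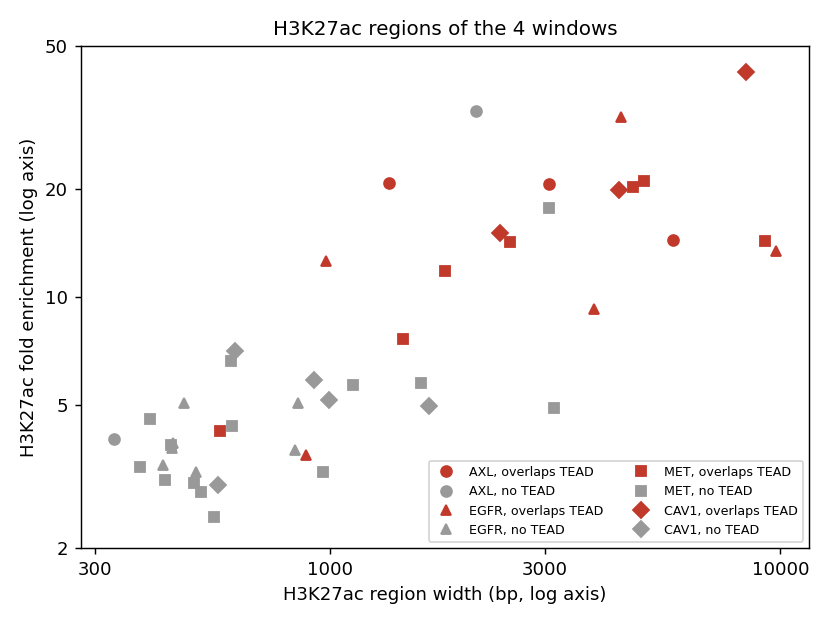
Width in bp against fold for the 46 H3K27ac regions, both axes logarithmic, with red symbols for regions that overlap TEAD and symbol shapes for the 4 windows. Most red symbols lie at high width and fold (medians 3459 bp and 14.4), and most grey ones at low values (582 bp and 4.21).

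Acetylated regions joined over short gaps formed a domain at each start, and some domains ran past the 50 kb windows. Ranked by fold times width among 22587 domains, the MET domain (116311528 to 116381674, 70.1 kb, 22 H3K27ac and 9 TEAD regions) took rank 110; 7 of these TEAD regions were members and 2 lay beyond the window. The CAV1 domain (116138661 to 116169639, 31.0 kb, 5 H3K27ac and 9 TEAD regions) took rank 144 and included the group on the CAV2 side. Both were among the 863 domains classed as large by the curve of ranks. At EGFR the start domain (55085832 to 55104986, 19.2 kb) ranked 1188 and was not large, whereas the downstream domain that holds the 20.2-fold TEAD region (55119066 to 55180902, 61.8 kb, 14 H3K27ac and 11 TEAD regions, 4 of them members) ranked 163 and was. The AXL domain (41724288 to 41733639) spanned only 9.35 kb, ranked 1283 and was not large, although it held the strongest TEAD regions of the set.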

How the data were processed

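Peaks had been called by the authors on 1 H3K27ac library and 1 TEAD library of 786-O cells; the input library was not used here. Named in the submitters' processing notes, without role or parameters, are fastp, Bowtie2 2.4.5, MACS2 and the build hg19. Each deposited peak has a fold (a ratio), a −log10 p, a −log10 q, the offset of its summit, and a score that was not used. Deposited −log10 q values started at 2.05 (H3K27ac) and 2.03 (TEAD). Chromosome Y was left out, and coordinates count from 1.

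The pileup k, a whole number, and the background b were solved from (k + 1)/(b + 1) = fold and a Poisson probability of more than k reads equal to p, matching p within 0.002 on the log scale for 100% of regions; the solver was tested on simulated data. Overlap means at least 1 bp. Shares have Wilson intervals. Summit distances refer to the H3K27ac region sharing most bases. For domains, gaps of at most 12.5 kb between H3K27ac regions were bridged, sums of fold times width were ranked, and domains above slope 1 of the scaled curve were classed as large. No test between groups was made. For each locus the nearest, strongest and farthest regions were named, and all where 8 or fewer, or where a count or sequence of values required it.

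The members, lists and alternatives were chosen with earlier results of these data known, and the centred windows, GC box and TATAAA after values had been seen. Python 3.11.15, scipy 1.17.1 and pandas 2.3.3 were used.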

Additional observations from a re-analysis of the deposited data

How the results depend on the processing

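Of 45 alternative settings, 36 kept each count within 1.5 times or the median within its 95% interval. The others follow from the size of the windows, the loci included or the scale. Leaving out 1 locus could not move the count of marked TEAD regions that far, since no locus held more than 9 of the 31. Within 25 kb EGFR had 4 TEAD regions and MET 5, and within 100 kb EGFR had 18; the strongest EGFR region was then 11.4- or 53.6-fold. Marked TEAD regions numbered 20 of 20 within 25 kb and 47 of 51 within 100 kb. H3K27ac regions with TEAD numbered 10 of 23 and 34 of 86, and 11 of 25 without the MET locus. Counts can keep while shares move. With −log10 q of at least 5, 17 of 33 H3K27ac regions carried TEAD, 51.5%, where the main setting gave 39.1%. The 100 kb windows of CAV1 and MET overlap, so the 100 kb totals count a region in both windows once for each gene. The median TEAD fold of 7.63 (95% interval 5.02 to 11.4) became a median log2 pileup of 5.11, beside 4.58 for all TEAD regions. With 1 library per antibody no value has a replicate check, and a region without a called overlap is not shown to lack the other signal at this depth.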
